A study of Homo sapiens with 6 samples.

Results

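The wide SUMO peaks called under daunorubicin (DNR) only were chosen from the peak lists of chromatin immunoprecipitation with sequencing (ChIP-seq). A member was a DNR peak of at least 300 bp that shared no base with any peak of the mock or cytarabine (Ara-C) list. A block of 10 Mb on the long arm of chromosome 8 and the terminal 1 Mb of every chromosome were left out. Of 33355 DNR peaks, 1756 were at least 300 bp wide and 1209 of these shared no base with the other lists. Leaving out 85 peaks near chromosome ends and 107 on chromosome 8 gave 1017 members (95% Poisson interval 955 to 1081), of 149899 peaks in the 3 lists together. They were 74.7% of the 1362 DNR peaks of at least 300 bp outside the left-out regions, so most wide DNR peaks met the rule. Of all 31423 DNR peaks outside these regions, 93.4% shared no base with the other lists, so lack of overlap was not particular to wide peaks.

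The cells were HL-60, a human acute myeloid leukaemia line that grows in suspension. They were treated for 2 h with water (mock), with Ara-C at 2 µM or with DNR at 1 µM, and chromatin was precipitated with an antibody against SUMO-2/3. Material of 3 experiments was pooled into 1 library per condition, so no comparison here had a replicate and none was tested. The 3 input libraries were not analysed here. Peak positions hold no expression values, so the cell line could not be checked against marker genes. Intervals on shares are 95% Wilson intervals, and all intervals cover counting error only.

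SUMO is a small protein that is joined to lysines of other proteins, many of which are transcription factors and chromatin proteins. SUMO-2 and SUMO-3 are the forms that form chains and are conjugated rapidly under stress. DNR is an anthracycline that slides between the base pairs of DNA and traps topoisomerase II on it, whereas Ara-C is a nucleoside analogue that is built into DNA during replication. Long runs of TG on one strand, which read CA on the other, are the most common dinucleotide repeats of the human genome. In such runs purines and pyrimidines alternate, a pattern known from biochemistry to permit the left-handed Z form of DNA.

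The central 300 bp of 5 members follow, read from the plus strand of the reference genome (GRCh37/hg19). Each label gives the class of the peak midpoint, so a window may reach into another class. Intergenic labels name the gene with the nearest coding start site, which was 378339 bp away for SPRY2. Capitals mark runs of at least 10 bases in which purines and pyrimidines alternated. The first pair are the widest members between genes and at a promoter, and they show the repeats found in the central 300 bp of the widest peaks. Repeat content was not measured over whole peaks. The exon member is the widest whose window shares no base with an annotated UTR of any transcript, a condition set for all windows shown. Wider members in exons of SRRM2, DIRAS1 and GAS2L1 did not meet it. This member and members with the highest and the lowest G+C content show windows without such runs.
intergenic upstream of IRX1, chr5:3323651-3323950: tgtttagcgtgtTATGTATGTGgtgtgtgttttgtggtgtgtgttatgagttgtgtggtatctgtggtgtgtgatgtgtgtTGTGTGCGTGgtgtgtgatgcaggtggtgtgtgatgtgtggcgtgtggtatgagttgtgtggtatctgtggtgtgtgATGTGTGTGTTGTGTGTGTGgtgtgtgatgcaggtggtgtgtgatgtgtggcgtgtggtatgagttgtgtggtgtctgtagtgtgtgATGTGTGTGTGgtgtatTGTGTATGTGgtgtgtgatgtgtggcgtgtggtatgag
UBE2QL1 promoter, chr5:6447651-6447950: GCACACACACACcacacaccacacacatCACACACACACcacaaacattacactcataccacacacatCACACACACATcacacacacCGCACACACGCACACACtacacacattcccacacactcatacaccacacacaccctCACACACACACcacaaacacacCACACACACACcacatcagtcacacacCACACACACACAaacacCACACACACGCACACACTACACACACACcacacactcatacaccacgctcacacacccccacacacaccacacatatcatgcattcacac
NUP153 exon, chr6:17626051-17626350: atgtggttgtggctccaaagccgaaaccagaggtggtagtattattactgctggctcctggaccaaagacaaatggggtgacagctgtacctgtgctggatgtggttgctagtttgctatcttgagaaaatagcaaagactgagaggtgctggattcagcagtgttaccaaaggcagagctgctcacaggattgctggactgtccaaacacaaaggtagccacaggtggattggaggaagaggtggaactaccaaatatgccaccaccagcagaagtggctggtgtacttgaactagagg
SOX8 intron, chr16:1032301-1032600: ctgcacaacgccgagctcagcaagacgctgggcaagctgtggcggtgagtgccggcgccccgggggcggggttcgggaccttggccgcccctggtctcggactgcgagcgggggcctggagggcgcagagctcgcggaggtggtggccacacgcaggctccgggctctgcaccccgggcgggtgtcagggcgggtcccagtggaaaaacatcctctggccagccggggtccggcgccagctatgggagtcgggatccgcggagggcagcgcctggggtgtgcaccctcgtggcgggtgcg
intergenic near SPRY2, chr13:81293451-81293750: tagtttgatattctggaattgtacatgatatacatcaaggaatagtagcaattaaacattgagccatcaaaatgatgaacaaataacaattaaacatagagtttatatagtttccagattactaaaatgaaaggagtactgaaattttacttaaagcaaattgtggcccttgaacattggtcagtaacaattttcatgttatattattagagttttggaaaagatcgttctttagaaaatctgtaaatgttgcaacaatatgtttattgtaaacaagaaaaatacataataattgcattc

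The intergenic member at chr5:3322951-3324650 was 1700 bp wide and 272146 bp upstream of the nearest coding start site, that of the homeobox gene IRX1. Its central 300 bp held 61 bases in alternating runs, and 65.9% of the neighbouring base pairs there read CA, AC, TG or GT. The member at the promoter of UBE2QL1, a ubiquitin-conjugating enzyme gene, spanned chr5:6447301-6448300 and ended upstream of the gene. Its central 300 bp held 113 alternating bases, in the CA reading. The member in an exon of NUP153, a nuclear pore gene, and both members chosen by G+C content held no such run.

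TG/CA repeats were more frequent in the members than in narrower DNR-only, wide mock-only or wide Ara-C-only peaks, and their interval met that of wide DNR peaks shared with another list. The measure was the share of neighbouring base pairs (steps) in the central 300 bp that read CA, AC, TG or GT, and a window with at least 50% of such steps is called TG/CA-rich here. TG/CA-rich windows made up 168 of the 1017 members, or 16.5% (14.4 to 18.9). The same share was 1.10% (0.983 to 1.23) in the 28332 DNR-only peaks under 300 bp. It was 10.7% (7.88 to 14.4) in the 345 wide DNR peaks that shared bases with another list. Wide peaks called only under mock (n = 1500) held 4 such windows, 0.267% (0.104 to 0.684), and wide peaks called only under Ara-C (n = 2780) held 1, 0.0360% (0.00635 to 0.203). Over all 9366386 windows of 300 bp in the same regions of the genome, 0.0631% were TG/CA-rich. With a bound of 60% of steps, 13.2% (11.2 to 15.4) of members passed, against 8.41% (5.92 to 11.8) of wide shared DNR peaks, 0.579% of narrower DNR-only peaks and 0.0667% of wide mock-only peaks.

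The TG/CA-rich windows of the genome were also counted directly, whether or not a peak was wide. Of 1978 windows with at least 60% TG/CA steps, 27.1% (25.2 to 29.2) were touched by a DNR peak of any width. A mock peak touched 3.59% (2.86 to 4.50) of them and an Ara-C peak 3.08% (2.41 to 3.94). Windows with under 20% TG/CA steps were touched by DNR peaks in 0.289%, by mock peaks in 0.635% and by Ara-C peaks in 0.958%. Of all 5908 TG/CA-rich windows, 6.20% (5.61 to 6.84) were touched by a member. DNR peaks thus touched the smallest share of the windows poor in TG/CA steps and the largest share of the TG/CA-rich ones. Neighbouring windows of 1 repeat tract are not independent, so these intervals are too narrow.

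**Figure D1:**
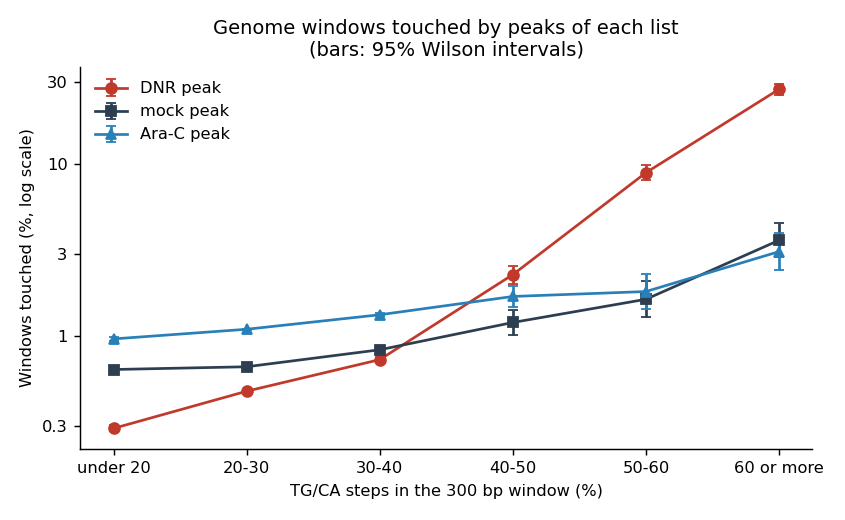
Share of 300 bp genome windows touched by a peak of each list (log scale, %) against the share of TG/CA steps in the window (%), with 95% Wilson intervals as bars. The DNR line climbs from 0.289% to 27.1%, while the mock line ends at 3.59% and the Ara-C line at 3.08%.

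The TG/CA-rich windows are themselves gathered at chromosome ends, since 38.0% of them lay within 5 Mb of an end against 5.86% of all windows. The difference between the lists was present in both places. Between 1 and 5 Mb from an end, DNR peaks touched 19.0% (17.4 to 20.7) of TG/CA-rich windows, mock peaks 2.14% and Ara-C peaks 2.18%. Farther than 5 Mb from an end, DNR peaks touched 12.6% (11.5 to 13.7), mock peaks 2.37% and Ara-C peaks 2.27%. Among members farther than 5 Mb from an end, 9.59% (7.74 to 11.8) were TG/CA-rich, against 0.291% of wide mock-only and 0.0388% of wide Ara-C-only peaks. Wide shared DNR peaks had 7.17% (4.74 to 10.7) there, an interval that overlapped that of the members.

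Average profiles over 1000 bp on each side of the midpoint were taken of TG/CA steps and of G+C content. The mean share of TG/CA steps of members rose from 26.3% in the flanks to 32.9% at the centre. This mean was raised by the TG/CA-rich members, which had 66.5% at the centre. The median share in the central 300 bp was 26.8% over all members and 25.8% in those that were not TG/CA-rich. Narrower DNR-only peaks went from 24.8% to 26.4%. In the TG/CA-rich members, whose high centre follows from how they are defined, the flanks had 33.5%. Wide shared DNR peaks also had more TG/CA steps at the centre, 29.3% against 25.1% in the flanks. Wide mock-only peaks went from 24.4% to 25.1% and wide Ara-C-only peaks from 24.5% to 25.2%. G+C content showed the opposite contrast. It was 48.0% at the centre of members and 47.0% in their flanks, a small step beside that of wide mock-only peaks, from 45.9% to 50.3%.

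**Figure D2:**
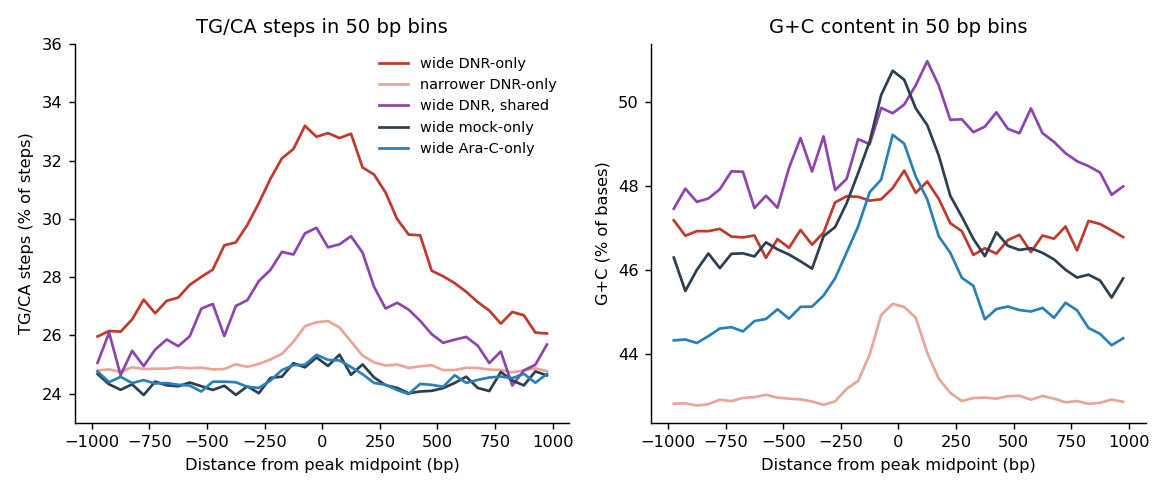
Mean share of TG/CA steps (left, %) and of G+C bases (right, %) in 50 bp bins against the distance from the peak midpoint (bp), for each set of peaks. At the centre members reach 32.9% TG/CA steps and 48.0% G+C, and wide mock-only peaks 25.1% and 50.3%.

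Tandem repeats of any kind were counted as runs of at least 25 bp in which a unit of 1 to 100 bp matched itself at 80% of positions. They were present in 273 members, 26.8% (24.2 to 29.7). The share was 8.22% in narrower DNR-only peaks, 29.9% in wide shared DNR peaks, 5.33% in wide mock-only and 6.47% in wide Ara-C-only peaks, and 11.7% of genome windows held one. Runs of at least 50 bp stood in 19.5% of members, 23.8% (19.6 to 28.5) of wide shared DNR peaks, 1.33% of wide mock-only peaks and 2.68% of windows. The most frequent unit of up to 6 bp was AC, in 96 members (9.44%), against 6.09% of wide shared DNR, 0.533% of wide mock-only and 0.863% of wide Ara-C-only peaks. Another unit, AATGG, is the repeat of human satellite DNA around centromeres. It occurred in 14 members on chromosomes 2, 4, 10, 20, 21 and Y, beside 23 of the 345 wide shared DNR peaks (6.67%), 5 wide mock-only and 11 wide Ara-C-only peaks. In all, 742 members held neither a tandem repeat nor a TG/CA-rich window.

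Width and repeat content went together. The rule used width, so the widths are a description: 473 members were 300 bp, 270 were 350 bp, 114 were 400 bp and 57 were 450 bp. The median was 350 bp and the maximum 1750 bp, 103 members reached 500 bp and 14 reached 1000 bp. Just outside the threshold lay 1929 DNR-only peaks of 250 bp. TG/CA-rich windows were 7.82% of members of 300 bp, 12.6% of those of 350 bp and 19.9% of those of 400 or 450 bp. They were 49 of the 89 members from 500 to 950 bp, 55.1% (44.7 to 65.0), and 14 of the 14 members of 1000 bp or more. Below the threshold the share also fell with width, from 3.53% at 250 bp to 1.43% at 200 bp and 0.654% at 150 bp. In the list-only peaks of the other treatments no such window was found from 400 bp upward: none of 303 wide mock-only peaks and none of 597 wide Ara-C-only peaks of at least 400 bp was TG/CA-rich, and 3 peaks, taken as the limit that a count of 0 allows, would be 0.990% and 0.503%. Of 89 wide shared DNR peaks of at least 500 bp, 24 were TG/CA-rich, 27%. The part of tract length in the widths was not tested.

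**Figure D3:**
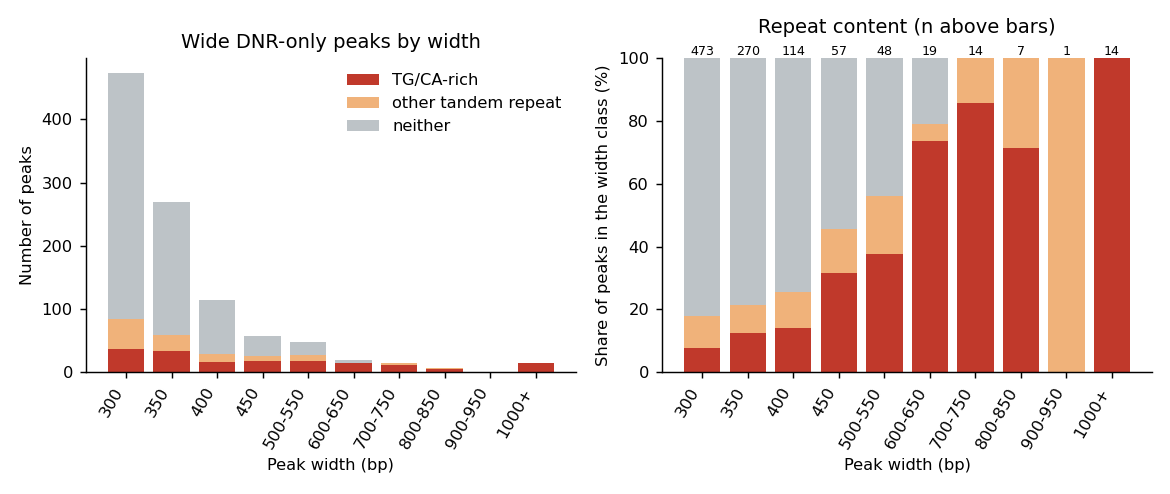
Number of members by peak width (bp, left), split into TG/CA-rich members, members with another tandem repeat and members with neither, and the share of each kind in the width class (%, right; numbers of members above the bars). The TG/CA-rich share goes from 7.82% at 300 bp to 14 of 14 members at 1000 bp or more.

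The 10 widest members outside chromosome 8 were all TG/CA-rich, with 55.5% to 78.9% of steps, and not all of them are named here. Beside the IRX1 member stood a member of 1700 bp at chr13:31416501-31418200, 63058 bp upstream of MEDAG. The next was 1450 bp wide at chr7:157274151-157275600, with the start of the co-chaperone gene DNAJB6 as the nearest coding start, 123608 bp away. A member of 1250 bp lay in an intron of MAD1L1, a mitotic checkpoint gene, at chr7:1927101-1928350. Another of 1150 bp lay in an intron of UCN3, which encodes a peptide hormone, at chr10:5412101-5413250. Members of 1100 bp had as their nearest coding start those of THBS2, a thrombospondin, at 118155 bp, TEX29 at 300811 bp and PCBP3, an RNA-binding protein gene, at 7708 bp. The last named, at chr1:207097201-207098200, was 1000 bp wide and 2357 bp upstream of a coding start site of FCMR. FCMR encodes the receptor for the Fc part of IgM. Other members had the same width. Among the 50 widest members 41 were TG/CA-rich and 47 held a tandem repeat.

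The 168 TG/CA-rich members differed from the other 849 in place as well as in sequence. Their median width was 400 bp against 300 bp, and 37.5% against 4.71% reached 500 bp. Within 5 Mb of a chromosome end lay 54.2% (46.6 to 61.5) of them and 14.5% of the others. Their median distance to the nearest mock peak was 18400 bp against 10150 bp, and to the nearest Ara-C peak 12075 bp against 6750 bp. None was placed in a coding exon, which allows a share of up to 1.79% by the limit of 3 counts, whereas 39 of the others were. Promoters held 3 of them and 34 of the others.

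By midpoint, 37 members lay in a coding promoter, 3.64% (2.65 to 4.97), taken as the 2 kb upstream of a start site of a protein-coding gene. Exons held 39 (3.83%), introns 456 (44.8%, 41.8 to 47.9) and 485 were intergenic (47.7%, 44.6 to 50.8). Of all 300 bp windows, 1.90% were in promoters, 2.61% in exons, 41.9% in introns and 53.6% between genes. The promoter share of members was close to the 2.92% of narrower DNR-only peaks, but with all annotated genes in place of coding genes it was 8.65% (7.08 to 10.5) against 6.25% (5.97 to 6.54). With coding genes it was below the 15.3% (13.5 to 17.2) of wide mock-only, the 12.6% (11.4 to 13.9) of wide Ara-C-only and the 11.9% (8.88 to 15.7) of wide shared DNR peaks, whose intervals did not overlap that of the members. A promoter peak of this kind was found for 39 of 19811 coding genes under DNR (0.197%), 301 under mock and 445 under Ara-C.

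The distances to the nearest coding start site (TSS) showed the same gap. Their median was 44075 bp (order-statistic 95% interval 37536 to 50611) for members, 53122.5 bp for narrower DNR-only, 20348.5 bp for wide mock-only and 26380 bp for wide Ara-C-only peaks, and 69522 bp for all windows. Within 1 kb of a TSS lay 43 members (4.23%, windows 1.85%) and within 10 kb 239 (23.5%, windows 14.2%), while 341 (33.5%, windows 41.9%) were over 100 kb away. In the last 250 bp upstream of a TSS lay 6 members, 2.20 times the share of windows, and in the first 250 bp downstream lay 2, 0.707 times that share. From 250 to 1000 bp downstream lay 22, or 3.21 times the share of windows. Wide mock-only peaks in the first 250 bp downstream numbered 79, 18.9 times the share of windows. Upstream of the nearest TSS lay 41.1% of members and 44.9% of windows.

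**Figure D4:**
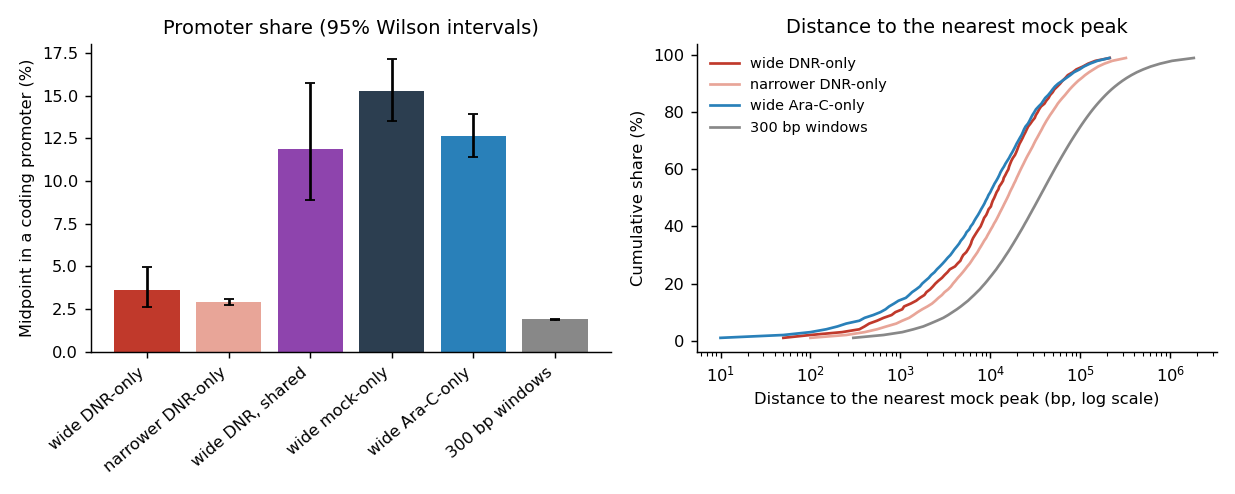
Share of peaks, or of 300 bp windows, whose midpoint lay in a coding promoter (%, left, with 95% Wilson intervals) and cumulative share (%) against the distance to the nearest mock peak (bp, log scale, right). Members sit at 3.64% on the left, beside 15.3% for wide mock-only peaks, and at a median of 11050 bp on the right, against 34850 bp for windows.

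The widest promoter members after UBE2QL1 were at MMEL1, a membrane metallopeptidase gene, and at PDE10A, a cyclic nucleotide phosphodiesterase gene. The MMEL1 member was 850 bp wide and 1242 bp upstream of a start site, with 59.9% TG/CA steps. The PDE10A member, chr6:166074501-166075150, was 650 bp wide and 264 bp upstream of a start site, with 66.3% G+C and 21.1% TG/CA steps. PAM16, a mitochondrial protein import gene, followed with 550 bp. Members of 450 bp lay at NEURL3, HSPA12A, a gene of the HSP70 family, PLK5, a polo-like kinase gene, and CYP4F12, a cytochrome P450 gene. The NEURL3 member was 150 bp from a mock peak, and the PLK5 member was the only one of these 4 that was TG/CA-rich (61.2%). Members of 400 bp lay at HTR6, a serotonin receptor gene, at JAKMIP1 and at other promoters. Of the promoter members named 3 were thus TG/CA-rich, which is the number among all 37.

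At least 1 member lay in the span or the 2 kb upstream of 492 of the 19811 coding genes (2.48%). These genes were long, with a median span of 97159.5 bp against 26979 bp for all coding genes. In the 4 classes of equal size by span the share of genes with a member was 0.384%, 1.37%, 2.54% and 5.63%, from the shortest to the longest. Length and number of members therefore cannot be told apart in a ranking of genes. With 5 members, all TG/CA-rich, PTPRN2, a receptor-type tyrosine phosphatase gene of secretory granules, had the most. It spans 1049 kb at chr7:157331750-158380515 and held 20 DNR peaks of any width, 4 mock and 8 Ara-C peaks. MCF2L, a guanine nucleotide exchange factor gene, and TAFA5, which encodes a secreted peptide, held 4 each. Then came ABCC4, a drug and nucleotide efflux transporter, COL5A1, a collagen chain, MAP3K5, a stress-activated kinase, PRDM16, a zinc finger regulator of brown fat, and ZMIZ1, a transcriptional coregulator of the PIAS-like family, with 3 each. The members in COL5A1 and PRDM16 were all TG/CA-rich, and no member in ABCC4, MAP3K5 or ZMIZ1 was. ABCA7, a lipid transporter gene of 25.6 kb, was the first by name of the genes with 2 members and the shortest of the genes named for their number of members.

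The peaks of any width in these genes were not the same mix. COL5A1 had 15 DNR peaks beside 2 mock and 4 Ara-C peaks, and PRDM16 had 16 beside 4 and 5. In contrast, MAP3K5 had 18 DNR peaks beside 25 mock and 29 Ara-C peaks, and ZMIZ1 had 12 beside 23 and 33. ABCC4 lay between, with 19 DNR, 17 mock and 21 Ara-C peaks.

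Gene lists were compared with the 2.48% of all coding genes that held a member. Of 24 immediate-early genes 1 did, ATF3, a stress-induced transcription factor, with a 300 bp promoter peak at chr1:212780751-212781050, 1203 bp upstream of a start site and 550 bp from a mock peak. Of 15 chromatin loop factors 1 did, the cohesin subunit gene STAG2, with a 300 bp promoter peak at chrX:123093551-123093850, 1250 bp from a mock peak. Neither peak held a repeat. Of 508 zinc finger genes 8 did (1.57%), with the widest peaks in ZNF407, ZNF197 and ZNF717, and of 66 protocadherin genes 2 did, PCDH17 and PCDH9. No member lay in any of the 24 NF-kB and inflammation genes, 30 p53 and DNA damage genes or 25 interferon-response genes. None lay in the 19 myeloid factors, 14 azurophil granule genes, 23 SUMO pathway genes or 20 chaperone genes. The same held for 86 ribosomal protein, 381 olfactory receptor and 68 histone genes. These genes are short, with median spans of 5595.5, 2106 and 514 bp against 26979 bp for all coding genes. In the shortest class by span, with a median of 4282 bp, only 0.384% of genes held a member. The 2.48% therefore does not match genes of their length. Most lists are too short for a share of 2.48% to give more than 1 gene, and a count of 0 in 30 genes allows up to 10.0% by the limit of 3 counts.

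G+C content was taken over the bases of each peak. In members it had a median of 47.6% (46.7 to 48.3), quartiles of 41% and 54% and a range from 26.7% to 74.0%. The medians were 44.5% in narrower DNR-only, 49.4% in wide shared DNR, 48.7% in wide mock-only and 47.0% in wide Ara-C-only peaks, and all windows together had a lower median than any of these sets. The kind of sequence changed along this range. Of 219 members under 40% G+C, 0.457% lay at a promoter. Among 294 members between 50% and 60% G+C, 30.6% were TG/CA-rich. Among the 117 at 60% or more only 2.56% were, while 11.1% lay at a promoter and 42.7% within 5 Mb of a chromosome end. The member in SOX8, 680 bp downstream of a TSS of this HMG-box factor, and another on the same chromosome shared the highest value. The lowest value was shared by a member on chromosome 18 and the printed member on chromosome 13. The nearest coding start site of the latter was 378339 bp away, that of SPRY2, an inhibitor of receptor tyrosine kinase signalling.

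The nearest mock peak was a median of 11050 bp (10050 to 12300) away, with quartiles of 3550 and 26350 bp. Narrower DNR-only peaks had a median of 15450 bp, wide Ara-C-only peaks 9250 bp and all windows 34850 bp. Within 500 bp of a mock peak lay 64 members (6.29%, windows 1.44%), within 10 kb 475 (46.7%, windows 22.1%) and within 100 kb 973 (95.7%, windows 74.4%, narrower DNR-only peaks 91.6%). The nearest Ara-C peak was a median of 7400 bp away, and the nearest other DNR peak 10150 bp, against 19150 bp for narrower DNR-only peaks.

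Members became denser toward chromosome ends. There were 2.11 (Poisson interval 1.68 to 2.60) per sequenced Mb between 1 and 2 Mb from an end, 1.57 between 2 and 3 Mb, 0.780 between 3 and 5 Mb and 0.256 farther than 20 Mb away. The TG/CA-rich share in these classes was 41.2%, 48.4%, 38.5% and 8.53%. Wide mock-only peaks went only from 0.991 to 0.479 per Mb, and wide Ara-C-only peaks from 1.21 to 0.942. Wide shared DNR peaks also became denser toward the ends, from 0.0931 per Mb farther than 20 Mb away to 0.545 per Mb between 1 and 2 Mb, so this trend was not particular to the members. In all 214 members, 21% (18.6 to 23.7), lay within 5 Mb of an end, against 15.1% (11.7 to 19.2) of wide shared DNR, 9.29% of narrower DNR-only, 8.33% of wide mock-only and 7.27% of wide Ara-C-only peaks and 5.86% of windows. Within 1 Mb of an assembly gap of at least 50 kb lay 208 members, 20.5%, against 11.2% of wide mock-only peaks and 9.40% of windows. Wide shared DNR peaks had 35.7% there.

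**Figure D5:**
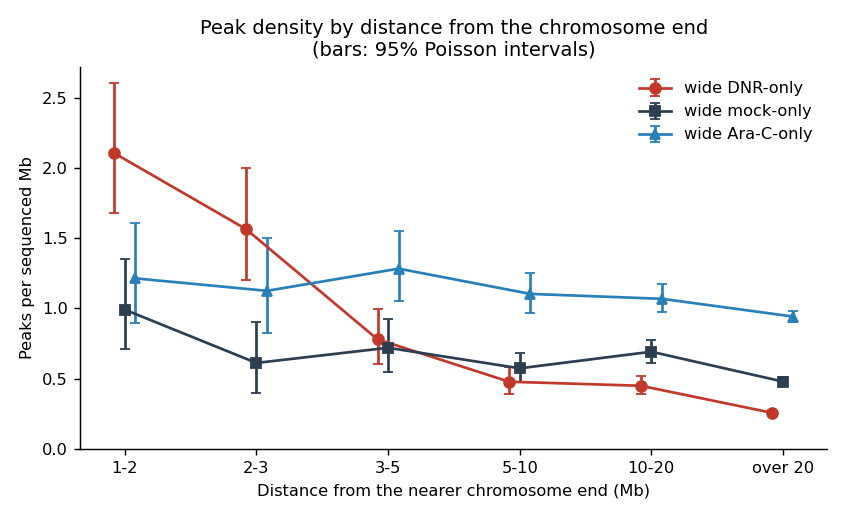
Peaks per sequenced Mb against the distance from the nearer chromosome end (Mb), for members, wide mock-only and wide Ara-C-only peaks, with 95% Poisson intervals. Members go from 2.11 to 0.256 per Mb and cross both other lines.

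Chromosomes 13 (114 members), 1 (112), 18 (98) and 6 (89) held the most. Per sequenced Mb the densest was chromosome 22 with 1.62, before chromosome 18 with 1.35 and chromosome 13 with 1.20, beside a median of 0.370 over the 22 autosomes. Chromosome 3 had 14 members and chromosome X had 4. As a share of the DNR peaks of each chromosome outside the left-out regions, members were 3.24% over all 31423 such peaks, from 1.05% on chromosome 3 to 6.46% on chromosome 19. On chromosome Y they were 5 of 37 DNR peaks. Mock peaks of any width were dense on the same chromosomes, at 39.4 per Mb (chromosome 13) and 37.4 per Mb (chromosome 18). Chromosome 3 had 10.1 mock peaks per Mb and chromosome X 2.10.

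Most members stood alone. When members within 10 kb were joined there were 966 groups, of which 923 held 1 member, 36 held 2 and 7 held 3 or more. The largest, 4 members of 1600 bp in sum, lay in MCF2L at chr13:113674801-113687750. In COL5A1, chr9:137651101-137653000 held 3 members, all TG/CA-rich, and so did the intergenic group at chr2:2576301-2578050.

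Short motifs were sought on both strands of the central 300 bp. The core motif of CTCF, the zinc finger protein of chromatin loop borders, was found in 1 member (0.0983%), in an exon of EPN1 at chr19:56215201-56215500. It was found in 0.169% of narrower DNR-only, 4.35% of wide shared DNR, 4.67% of wide mock-only and 2.99% of wide Ara-C-only peaks, and in 0.0491% of windows. With 1 mismatch allowed it was in 10 members (0.983%) and 0.469% of windows. The E-box CACGTG was in 8.16% of members, 4.20% of wide mock-only peaks and 2.74% of windows. Because its letters alternate purines and pyrimidines and contain CA and TG, it overlaps the repeats. It was in 39 TG/CA-rich members (23.2%), as in 23.3% of TG/CA-rich windows, and in 5.18% of the other members. The AP-1 motif TGANTCA was in 5.80% (4.52 to 7.41) of members, 7.54% (5.19 to 10.8) of wide shared DNR peaks, 9.13% of wide mock-only peaks and 9.34% of windows. All of these members were outside the TG/CA-rich ones, among which it was in 0 of 168, and it was in 6.95% (5.43 to 8.86) of the other members. The ETS motif CCGGAAG was in 0.885% of members, 4.33% of wide mock-only peaks and 0.693% of windows. No member held a telomere repeat.

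Copies of the same sequence elsewhere in the genome were few. A second match with at least 95% identity over 80% of the peak was found for 14 members, 1.38% (0.822 to 2.30). It was found for 25 wide shared DNR peaks (7.27%), 7 wide mock-only (0.467%) and 19 wide Ara-C-only peaks (0.684%).

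The DNR list itself differed from the others in ways that touch every count above. No base was shared with another list by 74.7% of wide DNR peaks, by 38.2% of the 3929 wide mock peaks and by 52.5% of the 5300 wide Ara-C peaks. Over DNR peaks of any width the share was 93.4%. Before peak calling, DNR reads were extended to 220 bp and reads of the other libraries to 210 bp. The pile-up threshold was 4 for DNR and Ara-C and 5 for mock. The part of these settings and of read depth, which the lists do not give, was not tested.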

How the data were processed

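SUMO-2/3 ChIP-seq of HL-60 cells gave 1 library for each of mock, Ara-C and DNR. The authors aligned reads to hg19 (CASAVA 1.8.2 per the labels' processing notes), extended them and computed signal in 50 bp bins. The paper states that the data were also scaled and the input subtracted. Peaks were called where the signal passed 32 over more than 100 bp, joining gaps of up to 100 bp. The deposited peak lists used here give positions with no score, count or depth, so depth per library is not known from them, and positions move in steps of 50 bp.

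Members were DNR peaks of at least 300 bp that shared no base with a mock or Ara-C peak, outside a 10 Mb block on the long arm of chromosome 8 and the terminal 1 Mb of each chromosome. Members, gene lists and alternatives were chosen with earlier results of these data known, and the TG/CA measure was chosen after the data had been seen. Genes came from GENCODE 44 lifted to GRCh37 (55871 start sites of 19811 coding genes). Midpoints were placed in the order promoter, exon, intron, intergenic. G+C content of a peak was taken over its own bases, and that of the background over 300 bp windows. TG/CA steps, tandem repeats and motifs used 300 bp centred on each peak, so that narrower peaks include flanking bases. The background was 9366386 windows of 300 bp in the same regions, with 1 in 50 used for motifs and tandem repeats. Copies were sought with blastn 2.17.0, and values were computed with Python 3.11.15, NumPy 2.4.6, pandas 2.3.3 and SciPy 1.17.1. The scripts were tested on simulated data.

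With 1 pooled library per condition, no test was run and no p-value is given. Named were the 10 widest members outside chromosome 8, the 10 widest at coding promoters, the 10 coding genes with the most members (ties by position or name), every listed gene with a member (the widest 3 of larger families) and members described by a count of 5 or fewer, the last chosen after their values were seen. Sequences were printed for members outside chromosome 8 whose window shared no base with an annotated UTR, the UTR condition being added after the data had been seen. Some of the items these rules pick are not reported here. The input libraries were not analysed here.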

Additional observations from a re-analysis of the deposited data

How the results depend on the processing

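The 9 results were recomputed under 15 other settings. Of 66 values, 44 were classed as unchanged and 22 as moved, and the cause was not tested except where the setting itself selects the peaks. Shares and medians were classed as unchanged inside their main counting interval, and member counts inside a 1.5-fold band. Counts of 809, 900, 1139 and 1209 members were thus classed as unchanged, though they lay outside the main interval of 955 to 1081. A width of at least 250 bp gave 2946 members, a median G+C content of 46.4%, 17.3% with a tandem repeat and 8.01% TG/CA-rich. At least 400 bp gave 274 members, 49.6% G+C, the CTCF core in 0%, 48.2% with a tandem repeat and 35.4% TG/CA-rich. That 0% cannot be told apart from the main CTCF share, which rests on 1 member. The median distance to a mock peak became 12625 bp without members that had a mock or Ara-C peak within 500 bp, 9550 bp when peaks sharing under 50% of their width also entered, and 9350 bp with the left-out regions kept. That last setting put 51.6% between genes. Without peaks within 1 Mb of an assembly gap, 20.6% held a tandem repeat and 13.8% were TG/CA-rich, and without peaks within 5 Mb of a chromosome end 9.59% were TG/CA-rich. With all annotated genes in place of coding genes, 8.65% lay at promoters, 33.7% between genes and the median distance to a start site was 13948 bp. With 1 mismatch allowed the CTCF core was in 0.983%. Tandem runs of at least 50 bp gave 19.5%, and a bound of 60% gave 13.2% TG/CA-rich. All TG/CA settings were chosen with the peaks already in view. No paired analysis was possible because the experiments had been pooled into 1 library per condition, and no replicate could be left out. The peak lists give neither read depth nor peak height, so it cannot be told from them how near to the calling threshold a member lay in any library.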
